A study of Mus musculus with 24 samples.

Results

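The small nucleolar RNA (snoRNA) genes were followed in RNA-seq libraries of mouse embryos in which the endogenous retrovirus MERVL had been knocked down. They were the gene rows whose symbol begins with Snord or Snora and a number and whose counts summed to at least 10 over the 12 RNA libraries. Of 55291 gene rows, 138 carried such a symbol and 56 of these met the count minimum. Among the 56 genes, 39 were of the box C/D class (Snord) and 17 of the box H/ACA class (Snora).

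Zygotes from mated B6D2F1 (BDF1) mice aged 8 weeks were injected in the male pronucleus with antisense oligonucleotides, short synthetic strands that pair with a target RNA, at 20 µM. MERVL-KD embryos received a mixture of 3 oligonucleotides against MERVL, which together made up that concentration, and control embryos a scrambled one; the labels give the strain of the embryos as BDF2. Each library was made from 30 embryos without their zona pellucida at the 2-cell stage (1.5 days post-coitum), the 4-cell stage or the 8-cell stage (both labelled 2.5 days post-coitum), with 2 libraries per stage and treatment. Because a library pooled whole embryos, fewer cells of a kind and less RNA per cell cannot be told apart, and one transient injection was compared with one scrambled control.

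The libraries held 28167085 to 41482526 counts. MERVL-int, the internal part of the retrovirus, took 6.33% and 6.57% of the counts in control 2-cell libraries against 0.157% and 0.143% in MERVL-KD, and it was lower in both MERVL-KD libraries at every later stage. All 5 markers of the 2-cell stage fell from the 2-cell to the 4-cell stage in control embryos, 3 of 5 markers of later cleavage rose, and 4 of 5 oocyte markers fell. In MERVL-KD against control 2-cell embryos 4 of the 5 markers of the 2-cell stage were lower on adjusted p, with Zscan4c called (log2 fold change -1.47, edgeR adjusted p = 1.93e-05), 2 of 5 oocyte markers were lower and Tead4, a marker of later cleavage, was higher (0.63, edgeR adjusted p = 0.0237). In 4-cell embryos Zfp352, of the 2-cell markers, was called lower (-1.04, edgeR adjusted p = 0.0317), while the median of the 5 was 0.26. Zscan4c (2.44), Tcstv3 (0.35) and Zscan4d (0.26) stood above 0 and Usp17lc (-0.24) below, none of them passing on adjusted p. Tead4 was lower under 2-fold (-0.56, edgeR adjusted p = 0.0132). The other markers of later cleavage did not pass, with Gata3 (0.50) and Klf5 (0.06) above 0 and Pou5f1 (-0.11) and Tfap2c (-0.18) below. In 8-cell embryos 0 of 5 markers of the 2-cell stage and 0 of 5 oocyte markers passed on adjusted p. Pou5f1 was the only 1 of the 5 markers of later cleavage to pass there, lower under 2-fold (-0.68, edgeR adjusted p = 0.00116). The part of these shifts in the snoRNA differences was not tested. Of 8 cumulus and granulosa cell markers, 3 had enough counts to be tested in 2-cell embryos, 1 in 4-cell embryos and 0 in 8-cell embryos, where none of them passed in MERVL-KD against control.

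snoRNAs are short nuclear RNAs that work inside ribonucleoprotein particles. Box C/D snoRNAs pair with ribosomal or small nuclear RNA and direct the methylation of a ribose, while box H/ACA snoRNAs direct the conversion of uridine to pseudouridine, and a few of either class are needed to cut the ribosomal RNA precursor. Most mammalian snoRNAs lie in introns of other genes, many of them genes of ribosomal proteins or of ribosome assembly, and are trimmed out of the spliced intron, whereas a small number have their own promoters. A count in these rows can come from the mature snoRNA or from unspliced host transcript, and these sources cannot be told apart here.

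Of the 5 genes called higher in MERVL-KD embryos, 4 are shown first, with the 4 genes that held most of the counts, because the results turn on them. The sequences were read from the GRCm38 assembly at the deposited coordinates and run 5′ to 3′ on the strand of the gene, and capitals mark a C box (TGATGA) within the first 20 bases and the last D box (CTGA) within the final 20 bases, or the ACA within the final 8 bases of a box H/ACA gene. Snord83b (chr15:80078498-80078591, minus strand) lies in an intron of Rpl3, Snord110 (chr2:130275506-130275573, plus strand) in Nop56 and Snora69 (chrX:37082912-37083042, minus strand) in Rpl39. Snord118 (chr11:69073427-69073561, plus strand) has no host gene in the annotation.
Snord83b: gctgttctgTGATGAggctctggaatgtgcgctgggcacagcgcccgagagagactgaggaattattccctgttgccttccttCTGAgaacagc
Snord110: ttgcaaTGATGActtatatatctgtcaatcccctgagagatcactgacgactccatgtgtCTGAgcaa
Snord118: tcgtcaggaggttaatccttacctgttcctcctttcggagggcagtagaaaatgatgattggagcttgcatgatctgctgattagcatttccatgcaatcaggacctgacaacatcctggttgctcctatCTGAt
Snora69: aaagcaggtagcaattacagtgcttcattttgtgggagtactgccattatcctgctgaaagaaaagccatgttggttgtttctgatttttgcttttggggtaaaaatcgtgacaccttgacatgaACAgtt

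The 4 most counted genes were Snord15a (chr7:99482785-99482932, minus strand) in Rps3, Snord17 (chr2:144265979-144266216, minus strand) in Snx5, Snora21 (chr11:97781639-97781775, minus strand) in Rpl23 and Snora23 (chr7:110046364-110046547, plus strand) in Ipo7.
Snord15a: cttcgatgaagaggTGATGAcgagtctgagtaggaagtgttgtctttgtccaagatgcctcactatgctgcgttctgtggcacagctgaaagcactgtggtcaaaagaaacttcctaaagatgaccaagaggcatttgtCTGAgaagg
Snord17: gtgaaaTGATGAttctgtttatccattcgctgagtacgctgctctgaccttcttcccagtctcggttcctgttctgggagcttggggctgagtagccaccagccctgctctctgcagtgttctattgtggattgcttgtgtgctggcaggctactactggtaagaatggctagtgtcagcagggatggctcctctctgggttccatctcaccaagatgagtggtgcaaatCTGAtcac
Snora21: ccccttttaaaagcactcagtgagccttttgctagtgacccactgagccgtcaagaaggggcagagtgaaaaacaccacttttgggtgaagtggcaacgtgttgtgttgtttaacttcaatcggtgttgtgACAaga
Snora23: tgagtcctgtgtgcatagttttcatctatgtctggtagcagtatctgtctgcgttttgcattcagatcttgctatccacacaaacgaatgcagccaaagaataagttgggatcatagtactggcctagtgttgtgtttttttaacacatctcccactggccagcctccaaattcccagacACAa

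The boxes were present in the loci far more often than beside them. Both boxes were found in 23 of the 39 box C/D genes (59.0%) and in 0 windows of the same length starting 200 bases upstream, and the D box alone in 38 of 39 (97.4%) against 1 (2.6%). The ACA was found in 17 of 17 box H/ACA genes and in 2 of their upstream windows (11.8%). The motifs were searched on the strand of the gene only. A C box further inside the RNA, as in the longer Snord118, falls outside the searched window, and a missing match says only that these letters are not in it.

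Level differed over more than 3 orders of magnitude among the 56 genes. On the scale of CPM (counts scaled to a common library total) per kilobase of gene length, averaged over the 12 libraries, Snord15a stood at 364, Snora21 at 337 and Snord17 at 252. Snora23 (114), Snord55 (109), Snora78 (99.7), Snora47 (86.3), Snord118 (63.4), Snora69 (28.8) and Snord83b (23.9) followed, and the lowest, Snora19, named only for that rank, stood at 0.307. Snord17, Snord15a, Snora21 and Snora23 together held 71.1% of all counts of the 56 genes, 10 genes had over 1000 counts in all and 18 had under 100. The median level was 4.07 CPM per kilobase for box C/D genes and 9.69 for box H/ACA genes. Box C/D genes were 64 to 238 bases long and box H/ACA genes 128 to 184 bases, and Spearman's rho between length and level per length over the 56 genes was 0.24, given as a description since all points share the same libraries.

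**Figure D1:**
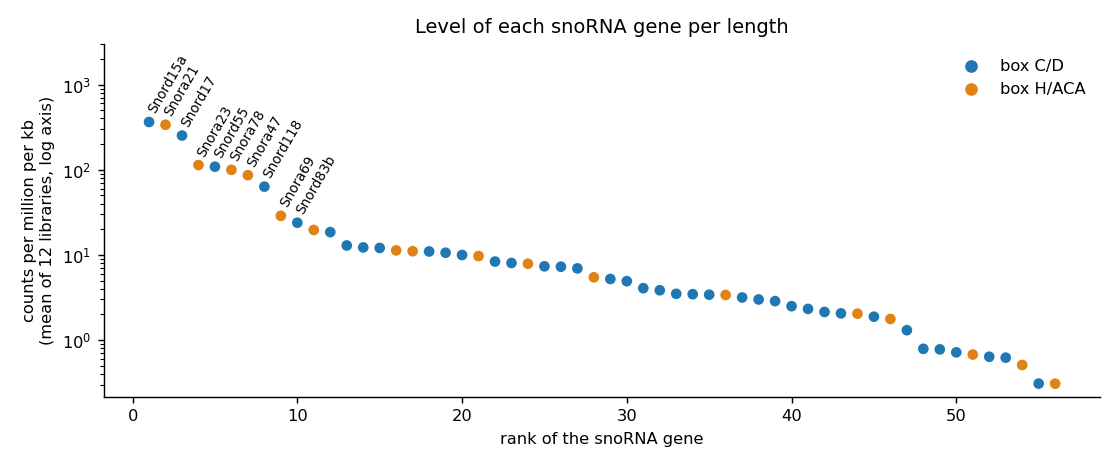
Mean level of each of the 56 snoRNA genes over the 12 libraries, in CPM per kilobase of gene length on a log axis, against its rank. Points are genes, blue for box C/D and orange for box H/ACA, the 10 highest genes are named, and Snord15a leads at 364.

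Which snoRNA genes could be counted followed the annotation around them. An exon of another gene on the same strand overlapped 58 of the 82 rows left out (70.7%) and 7 of the 56 genes kept (12.5%), and 78 of the 82 were listed at 0 in all 12 libraries. Of 73 rows free of such an overlap 49 were kept (67.1%), against 7 of 65 rows with one (10.8%). A read that falls on exons of 2 genes is left unassigned by the counting program unless it is told otherwise, so a 0 in these rows does not show that the snoRNA was absent. The 17 rows of Snord116, the family of the imprinted Prader-Willi region in Snhg14, each had 70 copies of at least 90% identity in the genome; 16 were listed at 0 and 1 held 7 counts, and only uniquely aligned reads had been kept. Another such copy existed for 13 of the 56 genes, among them Snord118, Snord13 and Snora21, whose reads could be split or lost in the same way. Of the 9 snoRNAs listed for their part in cutting the ribosomal RNA precursor, Snord118 and Snord13 were kept.

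The first comparison asked whether snoRNA levels differed when MERVL was depleted. In all, 5 of the 56 genes were called higher in MERVL-KD embryos at 1 stage or more: Snord55 and Snord83b in both 2-cell and 4-cell embryos, Snord110 in 2-cell embryos, and Snord118 and Snora69 in 4-cell embryos. None was called lower. As only 1.06% to 2.24% of all genes tested were called lower at a stage, that count of 0 is near the share over all genes. A gene was called at a Benjamini-Hochberg adjusted p under 0.05 and a fold of at least 2 in edgeR's quasi-likelihood test. Levels are given in CPM.

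At the 2-cell stage 21 of the 56 genes had enough counts to be tested. Of these 3 were called higher, all of them box C/D, in a comparison where 4.37% of all genes tested were called higher. Snord83b, Snord110 and Snord8 reached the count filter in the MERVL-KD libraries alone, so they could be tested only by being higher there. Snord73a reached it in the control libraries alone and was not called. The count of 3, the number above 0 and the median therefore lean in part on that filter. None was called lower by edgeR or by DESeq2, where edgeR called 2.24% of all genes lower. At an unadjusted p under 0.05, 0 of the 21 were lower. The median log2 fold change of the 21 genes was 0.37, with 15 above 0, while that of all genes tested was 0.01. Both MERVL-KD libraries stood above both control libraries for 6 of the 21 genes, against 23.8% of all genes tested, and below both for 1. Snord83b, Snord110 and Snord8 are among the 6 and Snord73a is the 1 below, so these counts lean on the filter too. The share of all genes below both was not counted at any stage.

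Snord55 had 53 and 98 counts in 2-cell controls, whereas the MERVL-KD libraries held 402 and 401. The groups did not overlap, and the MERVL-KD libraries were the higher ones. The mean level was 2.19 ± 0.71 in control and 10.4 ± 1.26 in MERVL-KD embryos (SD, n = 2 each), a log2 fold change of 2.33 (SE 0.26, edgeR adjusted p = 1.89e-05).

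Snord83b, from Rpl3, had 0 and 5 counts in 2-cell controls, whereas the MERVL-KD libraries held 135 and 133. It was near absent in both control libraries and well counted in both MERVL-KD libraries. The log2 fold change was 5.59 (SE 0.64, edgeR adjusted p = 2.69e-05), and its size rests on the 5 control counts. Rpl3 differed by -0.17 (edgeR adjusted p = 0.438). Snord43, which shares Rpl3 with it, held 0 and 1 counts in control and 4 and 0 in MERVL-KD, too few to be tested.

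Snord110, which lies in the gene of the box C/D core protein Nop56, held 8 and 4 counts in control and 57 and 18 in MERVL-KD 2-cell libraries. The groups did not overlap, though the MERVL-KD libraries were unequal. The log2 fold change was 2.44 (SE 0.77, edgeR adjusted p = 0.046), and Nop56 itself differed by 0.22 (edgeR adjusted p = 0.157). The call rests on single libraries: without MERVL-KD replicate 1 the log2 fold change was 1.54 (edgeR adjusted p = 0.585), without control replicate 2 it was 1.93 (0.149), and by DESeq2 it was 2.44 (adjusted p = 0.072).

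At the 4-cell stage 38 genes were tested, of which 4 were called higher, against 2.66% of all genes tested. By adjusted p alone 7 of the 38 were higher, against 4.92% of all genes. Neither edgeR nor DESeq2 called any lower, where edgeR called 1.88% of all genes lower. At an unadjusted p under 0.05, 0 were lower. The median log2 fold change was 0.54, with 30 of 38 above 0, against a median of 0.03 for all genes. It was 0.59 for the 25 box C/D genes and 0.51 for the 13 box H/ACA genes. Both MERVL-KD libraries stood above both control libraries for 18 of the 38, against 28.0% of all genes. They stood below both for 1, where the share of all genes was not counted.

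Snord55 held 147 and 141 counts in control and 606 and 725 in MERVL-KD 4-cell libraries, a log2 fold change of 2.07 (SE 0.22, edgeR adjusted p = 1.23e-04). Snord83b held 36 and 17 against 123 and 227, a log2 fold change of 2.62 (SE 0.45, edgeR adjusted p = 0.00367). Neither pair of groups overlapped, and in both genes the MERVL-KD libraries were higher. Rpl3, the host of Snord83b, stood at -0.47 (edgeR adjusted p = 0.0147, under 2-fold). Per 1000 counts of Rpl3, Snord83b had 1.72 and 1.06 counts in control and 9.13 and 14.5 in MERVL-KD libraries.

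Snord118, which is transcribed on its own and is needed to process the RNAs of the large ribosomal subunit, held 211 and 163 counts in control and 638 and 820 in MERVL-KD 4-cell libraries. The mean level was 5.82 ± 0.23 in control and 20.7 ± 4.55 in MERVL-KD embryos (SD, n = 2 each), with a log2 fold change of 1.84 (SE 0.21, edgeR adjusted p = 2.61e-04). The groups were well apart at this stage. At the 2-cell stage, where it held 29 and 40 against 41 and 66 counts, the log2 fold change was 0.56 (edgeR adjusted p = 0.492) and the levels overlapped after scaling to CPM.

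Snora69, in the ribosomal protein gene Rpl39, held 126 and 85 counts in control and 256 and 215 in MERVL-KD 4-cell libraries, a log2 fold change of 1.03 (SE 0.28, edgeR adjusted p = 0.038). The groups did not overlap. This call was lost without control replicate 2 (log2 fold change 0.89, edgeR adjusted p = 0.16), without MERVL-KD replicate 1 (0.94, edgeR adjusted p = 0.113) and without MERVL-KD replicate 2 (1.11, edgeR adjusted p = 0.0504). Rpl39 differed by 0.09 (edgeR adjusted p = 0.609).

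The other 3 genes that passed on adjusted p alone at the 4-cell stage were box H/ACA and stayed under 2-fold. Snora47 held 342 and 277 against 520 and 588 counts (log2 fold change 0.71), Snora23 held 828 and 654 against 1115 and 1281 (0.56), and Snora21 held 1781 and 1207 against 2101 and 2646 (0.55). In each the MERVL-KD libraries were above the control libraries in CPM. The second MERVL-KD library was above the first for 33 of the 38 genes, while 49.0% of all genes were, and the summed level of the 56 genes was 317.1 and 430.2 CPM in these libraries and 277.1 and 248.3 in the controls. Without that second library the median log2 fold change of the genes tested was 0.30, and Snord55, Snord118 and Snord83b were still called. At the 2-cell stage the second MERVL-KD library was likewise above the first for 19 of 21 genes (52.6% of all genes), with sums of 93.9 and 137.2 against 97.6 and 93.2 in the controls, and without it the median log2 fold change was 0.13 and the same 3 genes were called. What sets these libraries apart was not tested.

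**Figure D2:**
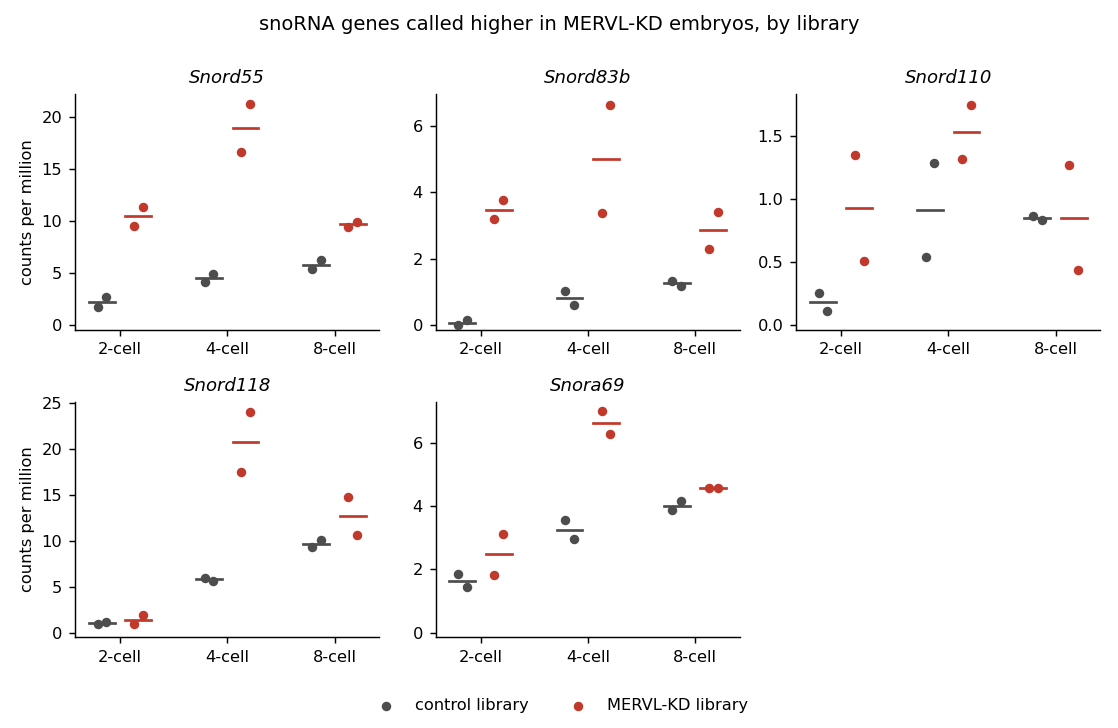
Levels in CPM of the 5 snoRNA genes called higher in MERVL-KD embryos, for each library (points) with the mean of 2 (lines), control in grey and MERVL-KD in red. Snord55 and Snord83b stand higher in both MERVL-KD libraries at all 3 stages, and Snord118 and Snora69 are furthest apart in 4-cell embryos.

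At the 8-cell stage 0 of 41 genes tested were called, by edgeR or by DESeq2, against 0.641% of all genes called higher and 1.06% called lower by edgeR. At an unadjusted p under 0.05 there were 3, all higher in MERVL-KD, and the median log2 fold change was 0.22 against 0.01 for all genes. Both MERVL-KD libraries stood above both control libraries for 14 of the 41, against 23.6% of all genes. They stood below both for 7, a count that cannot be read further because the share of all genes below both was not counted. Snord55 held 148 and 186 counts in control and 327 and 386 in MERVL-KD libraries, a log2 fold change of 0.75 (SE 0.22, edgeR adjusted p = 0.074). Snord83b held 37 and 35 against 80 and 133, a log2 fold change of 1.19 (SE 0.40, edgeR adjusted p = 0.115), and Snora21 held 1439 and 1576 against 2319 and 2305, with 0.27 (SE 0.12, edgeR adjusted p = 0.216). In all 3 the levels of the groups were apart, with MERVL-KD higher, but the difference did not pass the test. Without MERVL-KD replicate 1 Snord83b was called (log2 fold change 1.44, edgeR adjusted p = 0.0473). Snord118 stood at 9.66 ± 0.54 in control and 12.7 ± 2.86 CPM in MERVL-KD embryos (SD, n = 2 each), a log2 fold change of 0.40 (edgeR adjusted p = 0.336).

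Whether the effect of the knockdown changed between stages was tested as an interaction over all 12 libraries. Of 43 genes, 0 were called from the 2-cell to the 4-cell stage by edgeR, against 1.27% of all genes called with a higher effect at the 4-cell stage, while 3 had an unadjusted p under 0.05 and DESeq2 called 2. The effect on Snord118 was 1.36 larger at the 4-cell stage on the log2 scale (SE 0.43, edgeR adjusted p = 0.0768), and that on Snord83b differed by -2.89 (SE 0.89, edgeR adjusted p = 0.0736). From the 4-cell to the 8-cell stage edgeR again called 0, against 0.279% of all genes called with a lower effect, 3 had an unadjusted p under 0.05 and DESeq2 called 2. The effect on Snord118 differed by -1.44 (SE 0.37, edgeR adjusted p = 0.0806) and that on Snord55 by -1.32 (SE 0.35, edgeR adjusted p = 0.084). DESeq2 called Snord118 and Snord83b in the first of these comparisons and Snord118 and Snord55 in the second.

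**Figure D3:**
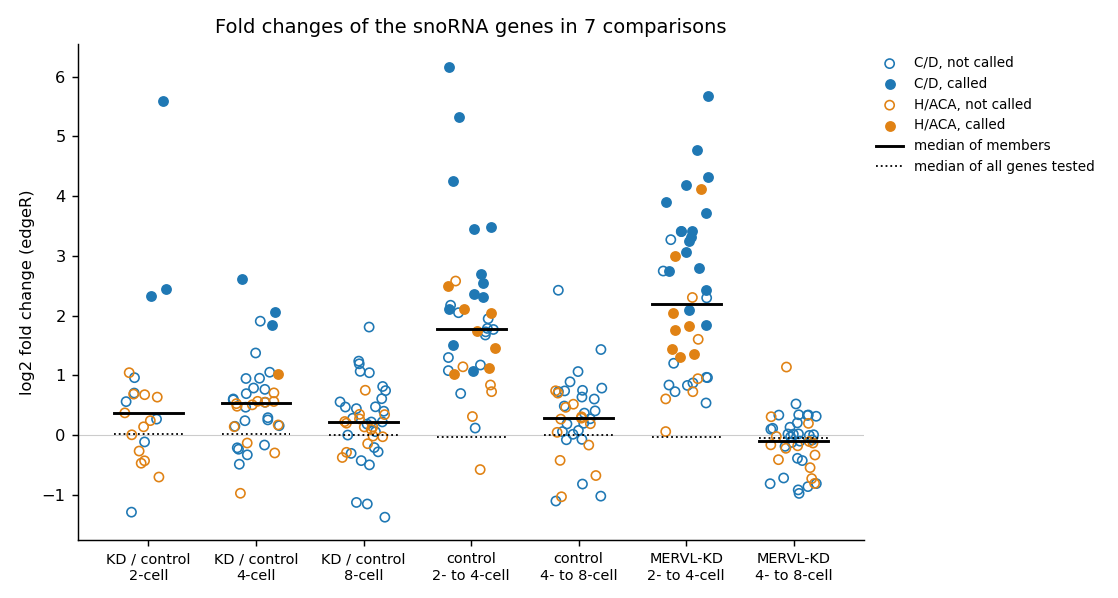
Fitted log2 fold change of each snoRNA gene tested in the 3 comparisons of MERVL-KD with control and the 4 comparisons between stages, with box C/D in blue, box H/ACA in orange and filled points for called genes. The black line is the median of the snoRNA genes and the dotted line that of all genes tested. The largest shift of the median, from the 2-cell to the 4-cell stage, is 1.77 in control and 2.19 in MERVL-KD embryos. Both of these medians lean in part on genes that met the count filter through the later stages alone.

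The second question was how the snoRNA genes behave as control embryos divide. From the 2-cell to the 4-cell stage 19 of 37 genes tested rose in control embryos, against 23.3% of all genes called higher. None was called lower by edgeR or by DESeq2, against 26.7% of all genes by edgeR, and 1 of the 37 was lower at an unadjusted p under 0.05. The median log2 fold change was 1.77, with 36 of 37 above 0, against -0.03 for all genes. It was 2.00 for the 24 box C/D genes, of which 12 rose, and 1.14 for the 13 box H/ACA genes, of which 7 rose. Part of the 37 met the count filter through the later stages alone, such as Snord49a (0 and 2 counts at the 2-cell stage), Snord43 (0 and 1) and Snord13 (0 and 6). For these the filter largely fixed a rise, and the numbers called, the numbers above 0 and the medians lean on them. Box C/D genes were affected more. Within the 2-cell stage, MERVL-KD against control, only 9 box C/D genes met the filter beside 12 box H/ACA genes. The values of the box C/D and box H/ACA genes at this step are therefore not a comparison of the classes. The summed level of the 56 genes was 95.4 ± 3.09 CPM in 2-cell, 262.7 ± 20.4 in 4-cell and 330.7 ± 2.65 in 8-cell control embryos (SD, n = 2 each). Genes without a count in either control library numbered 13 in 2-cell, 2 in 4-cell and 0 in 8-cell embryos.

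The 4 most counted genes rose, and the summed level of the rest went from 34.1 ± 0.03 to 61.9 ± 2.88 CPM (SD, n = 2 each). Snord15a, a box C/D gene, held 281 and 412 counts in control 2-cell libraries and 2668 and 1537 at the 4-cell stage, a log2 fold change of 2.70 (SE 0.17, edgeR adjusted p = 7.53e-09). Snord17 held 809 and 810 against 2388 and 1914 (1.50, SE 0.12, edgeR adjusted p = 5.12e-08). In both genes the 2 stages were far apart.

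Snora23 held 194 and 172 counts in 2-cell and 828 and 654 in 4-cell embryos (log2 fold change 2.11, SE 0.18, edgeR adjusted p = 1.54e-07), and a transcript on the opposite strand spans it. Snora21 held 709 and 757 against 1781 and 1207 (1.12, SE 0.13, edgeR adjusted p = 5.86e-06). Snord118 held 29 and 40 against 211 and 163 (2.54, SE 0.29, edgeR adjusted p = 2.95e-06). The stages did not overlap in any of the 3. Snord13, the other independently transcribed snoRNA kept, which helps to mature the RNA of the small ribosomal subunit, held 0 and 6 counts in 2-cell, 28 and 34 in 4-cell and 28 and 36 in 8-cell embryos (2-cell to 4-cell log2 fold change 3.48, SE 0.95, edgeR adjusted p = 0.0058).

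The fitted log2 fold change was below 0 for Snora47 alone among the 37. It held 464 and 527 counts in 2-cell, 342 and 277 in 4-cell and 201 and 210 in 8-cell control embryos, a log2 fold change of -0.58 to the 4-cell stage (SE 0.19, edgeR adjusted p = 0.0169, under 2-fold). Its levels went down at both steps without overlap. Zbed3, its host gene, went from 175066 and 167212 counts to 2616 and 2293, a log2 fold change of -6.03 (edgeR adjusted p = 0.00482), so that Snora47 had 2.65 and 3.15 counts per 1000 counts of Zbed3 in 2-cell and 130.7 and 120.8 in 4-cell embryos.

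From the 4-cell to the 8-cell stage 0 of 37 genes were called in control embryos by edgeR or by DESeq2. Of all genes 0.604% were called higher and 1.38% lower by edgeR, and 5 of the 37 had an unadjusted p under 0.05. On adjusted p alone 2 were higher. Snord17 went from 67.1 ± 0.88 to 93.4 ± 2.14 CPM (log2 fold change 0.49, edgeR adjusted p = 0.0167) and Snora78 from 10.9 ± 0.26 to 18.2 ± 0.11 (0.74, edgeR adjusted p = 0.0229; SD, n = 2 each). Both were apart between the stages and under 2-fold. Snora78 lies opposite the ribosomal protein gene Rps2, and whether the counting used strand is not given in the sources used here.

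MERVL-KD embryos showed the rise too. From the 2-cell to the 4-cell stage 24 of 42 genes tested rose, against 22.7% of all genes called higher, 42 of 42 were above 0 and the median log2 fold change was 2.19. Here too genes such as Snord13 (2 and 2 counts at the 2-cell stage) met the count filter through the later stages alone, which largely fixed their rise. The 24 that rose, the 42 above 0 and the median lean on such genes. Snord118 went from 41 and 66 to 638 and 820 counts (log2 fold change 3.90, SE 0.33, edgeR adjusted p = 3.97e-07). Snord55, already high at the 2-cell stage, went from 402 and 401 to 606 and 725 counts (0.87, SE 0.21, edgeR adjusted p = 0.00295, under 2-fold). From the 4-cell to the 8-cell stage 0 of 42 genes were called by edgeR or by DESeq2, with 3 at an unadjusted p under 0.05. Of all genes 1.08% were called lower and 0.191% higher by edgeR. Snord55 was then lower at -0.98 (SE 0.21, edgeR adjusted p = 0.033), just under 2-fold. The comparisons of treatments and of stages share libraries, so their values stand side by side and are not independent.

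**Figure D4:**
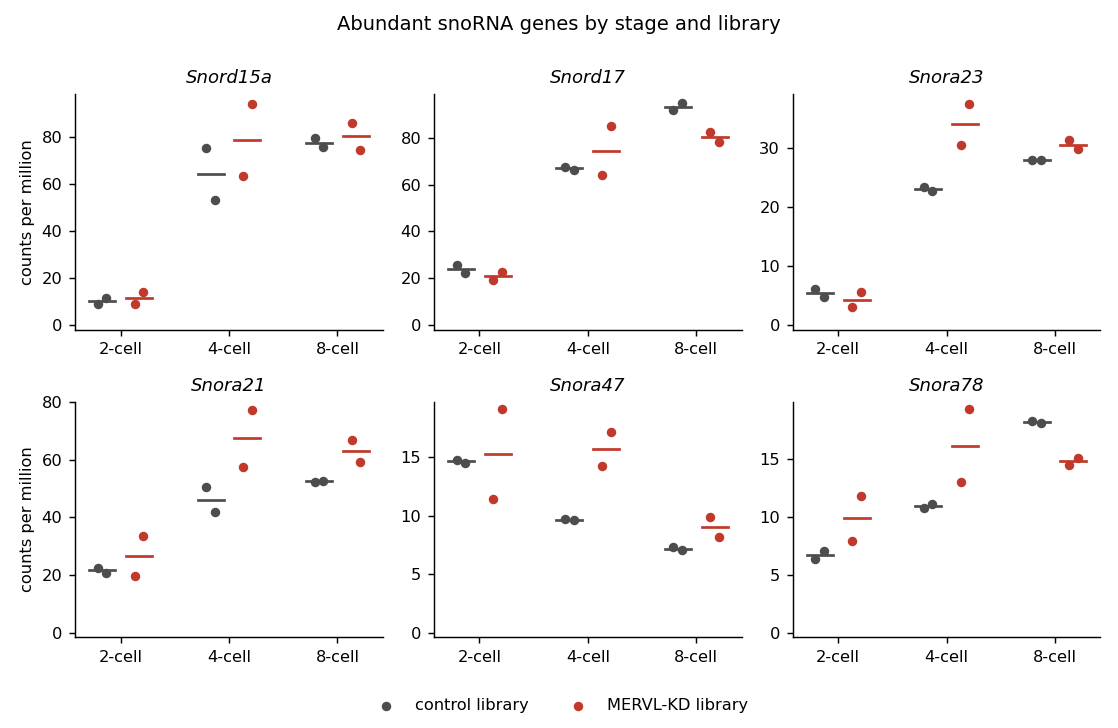
Levels in CPM of 6 abundant snoRNA genes for each library (points) with the mean of 2 (lines), control in grey and MERVL-KD in red. Snord15a, Snord17, Snora23 and Snora21 stand higher at the 4-cell than at the 2-cell stage in both treatments, while Snora47 goes down at each step in control embryos.

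Host genes were set beside the snoRNAs they carry. Of the 56 genes, 50 lay inside another gene on the same strand, in 42 hosts of which 36 were protein-coding and 10 encoded ribosomal proteins; the annotation gave no host for the other 6, Snord118 and Snord13 among them. No host was called in MERVL-KD against control by edgeR at the 2-cell (16 hosts tested), 4-cell (28) or 8-cell stage (30). Of all genes 4.37%, 2.66% and 0.641% were called higher and 2.24%, 1.88% and 1.06% lower, so 0 hosts is near those shares. On adjusted p alone 1, 4 and 3 hosts passed. Of all genes 6.7%, 4.92% and 1.5% were higher on adjusted p alone and 7.39%, 5.84% and 3.56% lower. At the 4-cell stage the snoRNA gene had the larger fold change in 24 of 32 pairs. Along the 2-cell to 4-cell step in control embryos, by contrast, 18 of 27 hosts rose and 2 fell, against 23.3% and 26.7% of all genes. Of the 15 called snoRNA genes with a tested host, 13 had a host called in the same direction. That count has to be read beside the 18 of 27, since hosts of snoRNA genes not called rose too, such as Rps3a1 of Snord73a. Across the 31 pairs of that step Pearson's r was 0.44 and Spearman's rho 0.26, while across the 32 pairs of MERVL-KD against control at the 4-cell stage both were -0.41, as a description over genes that share the same libraries and in part the same host.

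**Figure D5:**
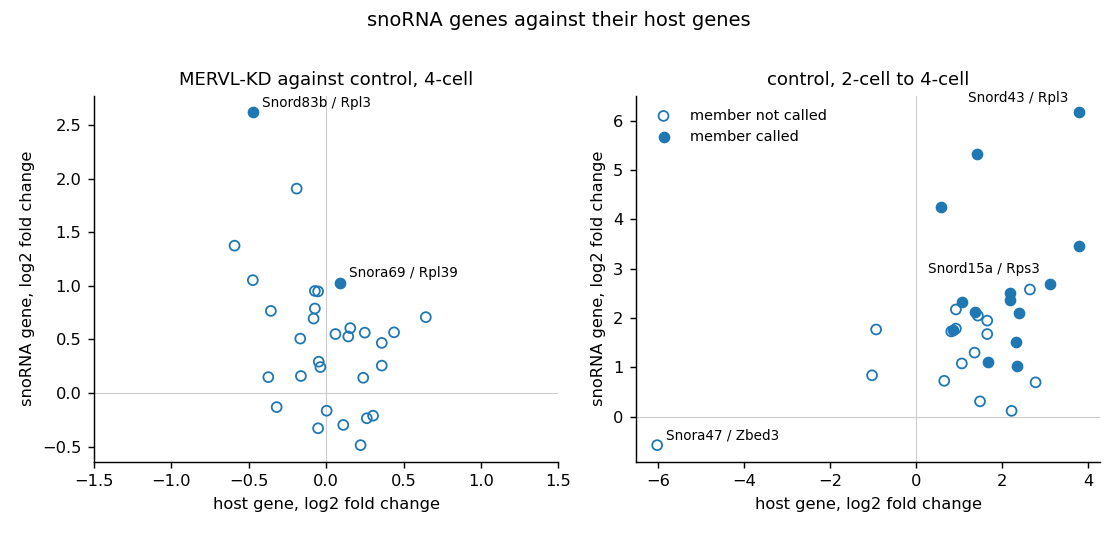
Log2 fold change of snoRNA genes against that of their host genes (the pair of Snord55 is not shown), for MERVL-KD against control at the 4-cell stage (left) and for control embryos from the 2-cell to the 4-cell stage (right), with filled points for called snoRNA genes. On the left the called Snord83b and Snora69 lie above hosts at -0.47 and 0.09, and on the right most points lie in the upper right quadrant; the highest, Snord43, rests on 1 control count at the 2-cell stage.

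The proteins of the snoRNA particles were counted as lists chosen beside the genes. Of the 4 box C/D core proteins Fbl, Nop56, Nop58 and Snu13 and the 4 box H/ACA core proteins Dkc1, Gar1, Nhp2 and Nop10, 0 were called in MERVL-KD against control by edgeR at any stage, with Fbl (log2 fold change -0.49, edgeR adjusted p = 0.00637) and Dkc1 (-0.41, edgeR adjusted p = 0.0068) lower under 2-fold at the 2-cell stage. Nop56 was lower under 2-fold in 4-cell (-0.36, edgeR adjusted p = 0.0228) and 8-cell embryos (-0.37, edgeR adjusted p = 0.022), and Snu13 in 8-cell embryos (-0.31, edgeR adjusted p = 0.0499). Among 10 assembly factors 0 were called at any stage, while on adjusted p alone 2 were lower and 1 higher in 2-cell embryos and 3 lower in 4-cell embryos. Of 8 maturation enzymes 1 was called, at the 2-cell stage, where 2.24% of all genes were called lower. Tgs1, which adds the trimethyl cap of snoRNAs made from their own promoters, held 4109 and 4712 counts in control and 1467 and 1245 in MERVL-KD embryos (log2 fold change -1.81, SE 0.10, edgeR adjusted p = 5.47e-09). It was lower under 2-fold in 4-cell embryos (-0.70, edgeR adjusted p = 0.0108). On adjusted p alone 3 of the 8 enzymes were lower in 2-cell embryos, 3 in 4-cell embryos and 1 in 8-cell embryos, with Tgs1 among them at the 2-cell and 4-cell stages, and 0 were higher. Of all genes 7.39%, 5.84% and 3.56% were lower on adjusted p alone at these stages, and 6.7%, 4.92% and 1.5% higher. Between 0.641% and 4.37% of all genes were called higher at a stage and 1.06% to 2.24% lower. Counts of 0 called in these short lists are near those shares. From the 2-cell to the 4-cell stage in control embryos 3 of the 4 box C/D proteins, 2 of the 4 box H/ACA proteins and 6 of the 10 assembly factors rose. None was called lower, though 2 of the assembly factors were lower on adjusted p alone. Of all genes 23.3% were called higher and 26.7% lower at this step.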

How the data were processed

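Total RNA libraries were made with a SMART-seq Stranded kit with depletion of ribosomal RNA fragments. The authors aligned reads to GRCm38 (mm10) with STAR 2.5.3a, kept unique alignments and deposited raw counts per gene and per repeat family, made with featureCounts on GENCODE and RepeatMasker annotation; the version, strand and pair settings of the counting are not given in the sources used here, and 56.9% of snoRNA values from 1 to 50 were even. The locus and host of Snord55 are not reported here. Chromatin accessibility libraries and other treatments are not analysed here.

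Counts were tested with edgeR 4.0.16 (R 4.3.3; filterByExpr, TMM scaling, quasi-likelihood test with robust fitting), within each stage for MERVL-KD against control, over the 6 libraries of a treatment for stages and over 12 libraries for interactions. Adjusted p-values cover all rows tested, and calls need an adjusted p under 0.05 and 2-fold. The count filter can be met by the group with more counts alone, and for such genes it fixes the direction. DESeq2 1.42.0, other scalings, filters, a replicate block, halved counts and single libraries left out were the alternatives. The procedure was tested on simulated data. CPM values use TMM factors over the 12 libraries. With 28167085 to 41482526 counts per library, 18 of the 56 genes had under 100 counts in all, and few counts limit their precision. Loci, hosts and copies were taken from a GENCODE annotation of the same build and BLAST 2.17.0+ (at least 90% identity over 90% of the length). The genes and gene lists were chosen with earlier results of these data known. Genes were named by being called in MERVL-KD or, between stages, by having the smallest adjusted p, the highest levels or a place in the lists. The study describes the 2 libraries of a group as biological replicates, and p-values measure the spread between these pools.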

Additional observations from a re-analysis of the deposited data

How the results depend on the processing

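No named gene changed direction under any alternative run, and Snord55, Snord83b and Snord118 kept their calls at the 2-cell and 4-cell stages wherever they were tested, with log2 fold changes of 2.03 to 2.68 (Snord55, 2-cell), 1.88 to 2.22 (Snord55, 4-cell), 2.06 to 3.08 (Snord83b, 4-cell) and 1.59 to 2.04 (Snord118, 4-cell); Snord83b at the 2-cell stage ranged from 4.71 to 10.0, the upper end without its 5 control counts. Of 79 counts of called genes recomputed without leaving out a library, 66 stayed within 1.5 times of the reported count. With at least 10 counts required in every library, which leaves fewer genes to test, 1 gene was called at the 2-cell stage, 8 along the 2-cell to 4-cell step in control embryos and 9 in MERVL-KD embryos. Without the fold threshold there were 7 at the 4-cell stage, 2 from the 4-cell to the 8-cell stage in control and 1 in MERVL-KD embryos; scaling by library size alone also gave 1 there. For the interaction of the 2-cell and 4-cell stages 2 were called by DESeq2, 2 with all rows of at least 1 count and 1 by library size alone; for that of the 4-cell and 8-cell stages, 2, 2 and, with halved counts, 1.

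When single libraries were left out, the calls ranged from 2 to 3 in 2-cell, 3 to 4 in 4-cell and 0 to 1 in 8-cell embryos, 14 to 23 and 0 to 0 for the steps in control embryos, 16 to 25 and 0 to 1 for those in MERVL-KD embryos, and 0 to 2 and 0 to 1 for the interactions. Snora21 fell just under 2-fold (0.96) from the 2-cell to the 4-cell stage without control 4-cell replicate 1. In 1 fit of all 12 libraries Snord110 was not called at the 2-cell stage (edgeR adjusted p = 0.0681). Same-numbered libraries did not deviate together (correlations of -0.04, 0.01 and 0.03 over genes), so the replicate numbers were not taken as a pairing; with the replicate block 3, 3 and 0 genes were called in MERVL-KD against control, 19 and 0 for the steps in control embryos, 22 and 0 in MERVL-KD embryos and 0 for both interactions, with Snora69 no longer called (edgeR adjusted p = 0.0531). Scaling by library size alone moved the median of all genes by more than 0.1 in several comparisons, to 0.30 for 2-cell and 0.13 for 8-cell embryos, 0.11 along the 2-cell to 4-cell step in control embryos and -0.21 for the next step, where the genes above 0 went from 28 to 21 of 37. Genes with few counts limit what these libraries can show: 18 of the 56 had under 100 counts in all.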

Other observations

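Outside the 56 genes, 263 further rows annotated as snoRNA, mostly with provisional names, held at least 10 counts. In MERVL-KD against control embryos, edgeR's quasi-likelihood test called 1 of 57 higher and 1 lower in 2-cell embryos (4.37% and 2.24% of all genes tested), 3 of 93 higher in 4-cell embryos (2.66%) and 0 of 87 in 8-cell embryos (0.641% higher). From the 2-cell to the 4-cell stage in control embryos 43 of 96 rose and 3 fell (23.3% and 26.7% of all genes). One of the rows called at the 4-cell stage, Rnu3b1, is also counted in the list of small noncoding RNAs. The 3 rows described next were chosen after their values were seen.

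Gm24745 (GRCm38 chr10:107136974-107137058, plus strand, with no gene around it in the annotation) held 68 and 73 counts in control 2-cell libraries and 0 and 0 in MERVL-KD. Its counts were 22 and 6 in control at the 4-cell stage and 12 and 4 at the 8-cell stage, with 0 in every MERVL-KD library. Against a floor of 3 counts per library it was at least 24.6-fold lower in MERVL-KD 2-cell embryos (edgeR adjusted p = 2.78e-05), the reverse of the direction of the called genes above.

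Gm23969 (chr2:26911261-26911334, plus strand, in the ribosomal protein gene Rpl7a) held 2 and 10 counts in control and 50 and 37 in MERVL-KD 2-cell libraries (log2 fold change 2.75, edgeR adjusted p = 0.0165), and 21 and 16 against 63 and 97 at the 4-cell stage (1.98, edgeR adjusted p = 0.0286). Gm25117 (chr10:111481493-111481636, plus strand, in the histone chaperone gene Nap1l1) held 109 and 99 against 242 and 279 at the 4-cell stage (1.19, edgeR adjusted p = 0.0187). In both rows the MERVL-KD libraries were the higher ones at that stage.

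Other small noncoding RNAs, among them small Cajal body RNAs, were counted as a list. At the 4-cell stage 2 of 12 tested were called higher in MERVL-KD embryos (2.66% of all genes) and 5 were higher on adjusted p alone (4.92% of all genes). At the 2-cell stage 0 of 9 were called and at the 8-cell stage 0 of 11. Rmrp, the RNA of an endoribonuclease that cuts the ribosomal RNA precursor, held 553 and 364 counts in control and 985 and 1034 in MERVL-KD 4-cell libraries (log2 fold change 1.02, edgeR adjusted p = 0.00297). Rnu3b1, a gene copy of the snoRNA that directs early cuts in the same precursor, held 43 and 44 against 255 and 173 (2.14, edgeR adjusted p = 0.00236), and its near-identical gene Rnu3a differed by 0.96 (edgeR adjusted p = 9.01e-04), so reads may be split between them. The effect on Rnu3b1 was larger at the 4-cell than at the 2-cell stage by 3.04 on the log2 scale (edgeR adjusted p = 0.016). Of 18 noncoding host genes tested, 1 was called at the 2-cell stage, Snhg14 (log2 fold change 1.05, edgeR adjusted p = 0.00183), and 1 at the 4-cell stage, Rian (1.58, edgeR adjusted p = 0.00546), both higher in MERVL-KD embryos. Of all genes 4.37% and 2.66% were called higher at these stages, so 1 of 18 is near those shares.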
